A study of Mus musculus with 6 samples.

Results

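The 10 circadian clock genes described here are Arntl, Clock, Npas2, Per1, Per2, Per3, Cry1, Cry2, Dbp and Nr1d1. They were taken by symbol from a table of raw read counts for 17275 genes, and all 10 were found and passed the filter on low counts. The 6 libraries were made from hepatocytes of C57BL/6 mice of the genotype Axin2rtTA;TetO-H2B-GFP, aged 8 weeks in the protocol and post natal day 63 in the sample labels. In these mice the Axin2 promoter drives a doxycycline-dependent activator, which switches on a histone-bound green fluorescent protein. All mice drank doxycycline for 7 days, non-parenchymal cells were removed, and hepatocytes were sorted into fluorescent (Axin2-positive, 3 libraries) and non-fluorescent cells (Axin2-negative, 3 libraries). Both groups therefore carry the same alleles and received the same drug, and the stable histone label also marks cells whose promoter was active earlier in the treatment. Each of 3 sequencing indexes was used for 1 library of each group, and libraries are numbered 1, 2 and 3 by that index. Neither the hour of collection nor whether both libraries of an index came from 1 mouse is stated in the labels. Values are listed in the order of index 1, 2 and 3.

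The circadian clock is a feedback loop of transcription that runs in nearly every cell and gives liver gene expression a daily rhythm. BMAL1, encoded by Arntl, pairs with CLOCK or NPAS2 and activates genes with E-boxes, among them the Per and Cry genes, Nr1d1 and Dbp. PER and CRY proteins then repress that activator, and the nuclear receptor REV-ERBα, encoded by Nr1d1, represses Arntl and Npas2. In mouse liver, Arntl and Npas2 transcripts are known to peak at nearly the opposite time of day to Dbp.

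Total reads per library ran from 75882611 to 103386648. Axin2, the gene sorted on, reached 22.6 and 24.2 CPM (read counts relative to the scaled library size) for labelled Axin2-positive 2 and 3, but the library labelled Axin2-positive 1 had 2.40 CPM, below its partner at 3.04 CPM. Directions that include the library labelled Axin2-positive 1 therefore carry that limit. The periportal gene Cyp2f2 followed the same split, with 6.17 and 18.8 CPM for Axin2-positive 2 and 3 and 1624 CPM for the one labelled Axin2-positive 1. The hepatocyte gene Alb was abundant in all 6 libraries. Reads of Ddx3y, on the Y chromosome, numbered 7164 and 6759 at index 2 and 0 to 3 in the remaining libraries, so sex and index 2 cannot be told apart.

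For all 10 clock genes the log2 range of the index means exceeded the largest log2 difference between the libraries of an index. The ratio of range to difference was low for Clock (1.19), Nr1d1 (1.75) and Per2 (1.83), and highest for Per3 (13.2). Comparisons of the groups include the library labelled Axin2-positive 1, in which Axin2 was not raised. Arntl, Npas2 and Cry1 were highest in both libraries of index 1 and lowest in both of index 3, whereas Dbp and Per3 were lowest at index 1 and highest at index 3. In edgeR's quasi-likelihood test of the indexes, with the group as a second term, 9 of 10 clock genes passed (Benjamini-Hochberg adjusted p under 0.05 over 12343 genes), against a background of 11.1% of all tested genes. Clock did not pass (edgeR adjusted p = 0.168), nor did it with limma-voom (adjusted p = 0.158). DESeq2 called it (adjusted p = 0.0224), where it called 4729 of all 12343 genes. Without the group term 7 of 10 passed, against 1042 of all 12343 genes, and Per2 (edgeR adjusted p = 0.0755) and Nr1d1 (0.0857) were lost. Of the 10 genes, 7 had values at the 3 indexes that did not overlap, against 23.5% of all genes. No clock gene passed the test between the groups (0% of all genes did), and for 0 of 10 did the groups fail to overlap, against 7.21% of all genes.

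**Figure D1:**
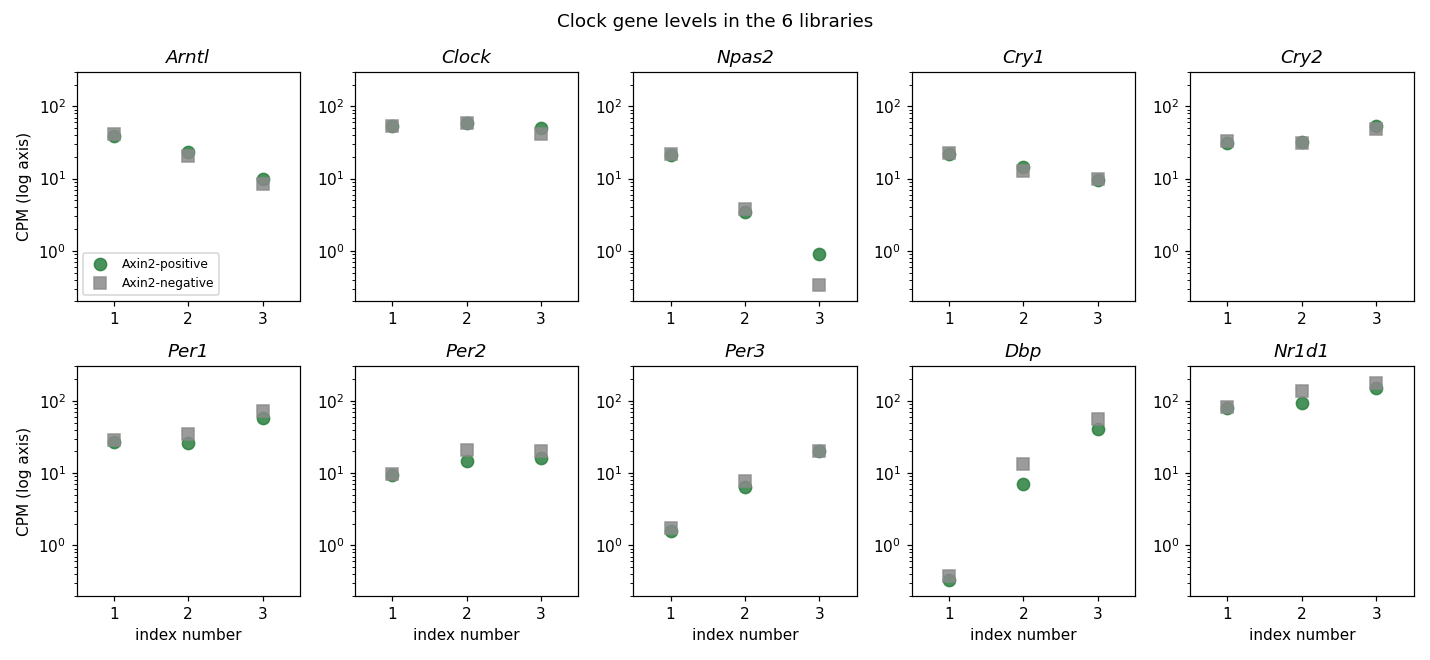
CPM of each clock gene on a log axis, by index number, with circles for Axin2-positive and squares for Axin2-negative libraries. For most genes the 2 points of an index lie close together, with wider gaps for Npas2 at index 3 (0.907 and 0.342 CPM) and Dbp at index 2 (6.99 and 13.2 CPM). Dbp spans 0.329 to 56.5 CPM and Npas2 0.342 to 22.0 CPM over the 6 libraries.

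Among the activators, Arntl (chromosome 7, 113207465 to 113314126, GRCm38), the obligate partner in the activating complex, was at 39.0, 23.7 and 9.79 CPM for those labelled Axin2-positive. In the Axin2-negative libraries it was at 40.8, 20.7 and 8.55 CPM. Every index stood apart from the other two, and at each the 2 groups lay within 0.20 of each other on the log2 scale. Arntl was lower at index 3 than at index 1 by a log2 fold change of -2.13 (SE 0.11, edgeR adjusted p = 0.00484) and lower at index 2 than at index 1 by -0.85 (SE 0.10, edgeR adjusted p = 0.0149).

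Npas2 (chromosome 1, 39193731 to 39363236), which can take the place of CLOCK beside BMAL1, had the widest span of the 3 activators. Its level was 20.9, 3.46 and 0.907 CPM for those labelled Axin2-positive, and 22.0, 3.76 and 0.342 CPM in the others. Only 78 and 30 reads remained at index 3, against 2032 and 2109 at index 1. The log2 fold change of index 3 against index 1 was -5.15 (SE 0.42, edgeR adjusted p = 0.0159), and that of index 2 against index 1 was -2.57 (SE 0.36, edgeR adjusted p = 0.0211).

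Clock itself (chromosome 5, 76209868 to 76304792) was the steadiest of the 10. Those labelled Axin2-positive held 53.8, 58.3 and 50.7 CPM and the Axin2-negative ones 53.3, 59.0 and 41.1 CPM. The log2 fold change of index 3 against index 1 was -0.23 (SE 0.11, edgeR adjusted p = 0.330), so a difference of this size was not called. Between indexes 3 and 2 it was -0.36 (SE 0.11, edgeR adjusted p = 0.124), which DESeq2 called (adjusted p = 0.0101) and limma-voom did not (adjusted p = 0.115).

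Per genes encode the rhythmic repressors. Per3 (chromosome 4, 151003652 to 151044665) had the widest span of them, at 1.58, 6.42 and 20.5 CPM for those labelled Axin2-positive and 1.75, 7.76 and 20.5 CPM in the Axin2-negative ones. Index 3 exceeded index 1 by a log2 fold change of 3.62 (SE 0.14, edgeR adjusted p = 0.00297). Per1 (chromosome 11, 69095217 to 69109960), which also responds quickly to hormones and stress, gave 27.0, 26.0 and 57.5 CPM against 28.5, 34.5 and 71.4 CPM. For Per1 it was index 3 alone that stood apart: 1.20 above index 1 (SE 0.11, edgeR adjusted p = 0.0190) and 1.09 above index 2 (SE 0.11, edgeR adjusted p = 0.0120), with 0.11 between indexes 2 and 1 (adjusted p = 0.515).

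Per2 (chromosome 1, 91415982 to 91459324), the partner repressor needed for a normal rhythm, set index 1 apart instead. Its values were 9.31, 14.8 and 16.2 CPM against 9.76, 21.1 and 20.4 CPM. Index 2 was above index 1 by 0.89 on the log2 scale (SE 0.13, edgeR adjusted p = 0.0230) and index 3 above index 1 by 0.93 (SE 0.13, edgeR adjusted p = 0.0458), while indexes 3 and 2 differed by 0.04 (adjusted p = 0.879). The call for index 3 against index 1 was lost with upper quartile factors (edgeR adjusted p = 0.0565) and both calls without the group term (0.0586 and 0.111).

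The 2 cryptochromes, which hold the PER complexes on the activator, went opposite ways. Cry1 (chromosome 10, 85131700 to 85185064) was at 22.1, 14.3 and 9.59 CPM for those labelled Axin2-positive and at 22.4, 12.9 and 9.77 CPM in the others. Cry2 (chromosome 2, 92403646 to 92434043) gave 30.9, 32.5 and 54.0 CPM against 32.9, 30.7 and 48.2 CPM. Cry1 was thus lower at index 3 than at index 1 by a log2 fold change of -1.20 (SE 0.10, edgeR adjusted p = 0.0157), and Cry2 was higher by 0.68 (SE 0.09, edgeR adjusted p = 0.0440). The call of Cry2 was lost when both libraries of index 2 were left out (0.68, edgeR adjusted p = 0.0763). Cry1 shared the order of Arntl and Npas2 over the indexes, and Cry2 had the order of Per1, in which only index 3 stood apart.

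Nr1d1 (chromosome 11, 98767932 to 98775333), the repressor of Arntl, was the most abundant clock gene by reads. It stood at 78.9, 92.2 and 148 CPM for those labelled Axin2-positive and at 82.7, 137 and 177 CPM in the Axin2-negative ones. The test over all 3 indexes called it (edgeR adjusted p = 0.0387), but no pair of indexes passed. The mean was 80.8 CPM at index 1 and 163 CPM at index 3 (SE of the log2 fold change 0.15, edgeR adjusted p = 0.0509). This difference passed with DESeq2, limma-voom, no TMM factors and no filter on low counts. It did not pass with upper quartile factors (edgeR adjusted p = 0.0594) or without the group term (edgeR adjusted p = 0.104).

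Dbp (chromosome 7, 45705088 to 45710203), a transcription factor that carries the rhythm to D-box genes of metabolism, had the widest range of the 10. It was near the floor at index 1, with 32 and 36 reads (0.329 and 0.376 CPM). At index 2 it reached 6.99 and 13.2 CPM, and at index 3 40.8 and 56.5 CPM, the Axin2-positive library being the lower one at both indexes. Its log2 fold change was 7.10 for index 3 against index 1 (SE 0.22, edgeR adjusted p = 0.00197) and 4.79 for index 2 against index 1 (SE 0.21, edgeR adjusted p = 0.00252). Ranked by the log2 range of the 3 index means, Dbp was number 45 and Npas2 number 99 of 12343 tested genes.

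**Figure D2:**
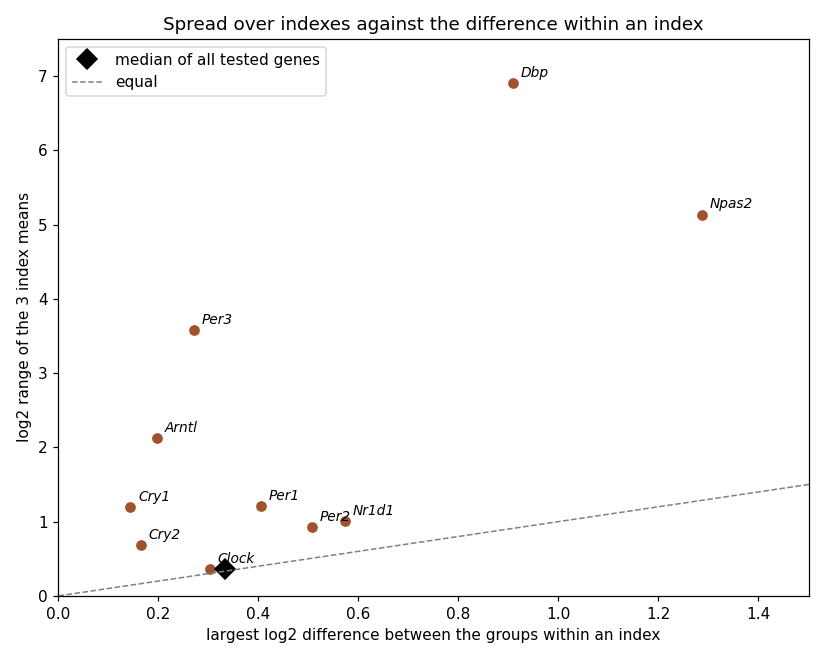
For each clock gene, the log2 range of the 3 index means (vertical) against the largest log2 difference between the 2 libraries of an index (horizontal), with an offset of 0.05 CPM. All 10 genes lie above the dashed line of equality, and 54.7% of all tested genes also had the larger range over indexes. The diamond marks the median of all tested genes (0.36 and 0.33).

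Counted by direction, 3 clock genes were higher at index 2 than at index 1 (Per2, Per3 and Dbp) and 3 lower (Arntl, Npas2 and Cry1), where 4.49% and 7.26% of all genes were called (11.7% either way). Index 3 exceeded index 1 for 5 (Per1, Per2, Per3, Cry2 and Dbp) and was below it for 3 (Arntl, Npas2 and Cry1), against 0.81% and 1.31% of all genes (2.12% either way). Between indexes 3 and 2, 4 were higher (Per1, Per3, Cry2 and Dbp) and 2 lower (Arntl and Npas2), against 4.86% and 2.79% (7.65% either way). Without TMM scaling the median gene moved by 0.14 (index 2 against 1) and 0.13 (index 3 against 1) on the log2 scale. The share of calls that were higher then moved from 38.2% to 62.2% and from 38.2% to 59.6%, while the directions of the clock genes named in these counts did not change.

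These calls rest on 2 libraries per index, which are not independent replicates if both came from 1 mouse. Fewer of the 10 passed the test over indexes without the library labelled Axin2-positive 3, or without the one labelled Axin2-negative 3. Fewer of all tested genes passed as well. All 8 calls between indexes 3 and 1 were lost in either case (Dbp: edgeR adjusted p = 0.0921 and 0.0712), where index 3 is left with a single library assumed to vary like the rest. Over the fits that left out libraries, the log2 fold change of index 3 against index 1 kept its sign for all 10 genes. For Dbp it ran from 6.84 to 7.33, and its range was widest for Npas2 (-6.02 to -4.50). Other measures moved with the indexes as well. Endothelial marker genes summed to 3.24 and 8.36 CPM at index 2 and to between 73.2 and 114 CPM in the other 4 libraries. The index test called 12 of 12 endothelial genes, against 11.1% of all tested genes. Immediate-early genes, 23 in number, are quickly induced by stress such as tissue digestion. They summed to 7360 and 7549 CPM at index 1 and to between 3255 and 5814 CPM elsewhere. The index test called 11 of 22 tested immediate-early genes, against the same 11.1%. Between indexes 3 and 1, 1 immediate-early gene was called, lower at index 3, and 0 endothelial genes were. The part of these differences in the clock results was not tested.

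To show the sequences on which this loop acts, the 250 bases before the RefSeq start were read for the clock genes (RefSeq promoters, GRCm38.p6, available for 9 of the 10 and not for Per2). Both strands were searched for the E-box CACGTG, the related E-prime box CACGTT, the D-boxes TTATGTAA and TTACGTAA, the receptor element cores TAGGTCA and TGGGTCA, and the cAMP response element TGACGTCA. The 9 genes had 13 such windows, as some have more than 1 start, and 5 windows, in 5 genes, held a match. An E-box was in Per1 and Cry1, against 6.02% of 32851 promoter windows of the same length. E-prime boxes were in Cry1, Cry2 and Nr1d1 (3.85% of windows), and Per3 alone held D-boxes, 2 of them, a match found in 0.9315% of windows. Neither receptor core (5.38% of windows) nor cAMP element (1.55% of windows) was found in the windows of the 9 genes. Per1 and Per3 are shown for 2 genes high at index 3, Cry1 for one that was low there, and Nr1d1 for the receptor gene. Capitals mark the matches, and AACGTG is the E-prime box read on the opposite strand.
Per1, chr11:69098699-69098948, plus strand: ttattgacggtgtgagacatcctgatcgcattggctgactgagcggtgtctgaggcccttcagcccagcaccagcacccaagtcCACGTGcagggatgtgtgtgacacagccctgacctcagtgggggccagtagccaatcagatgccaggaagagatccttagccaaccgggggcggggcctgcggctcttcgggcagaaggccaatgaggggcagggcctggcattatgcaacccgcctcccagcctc
Per3, chr4:151044666-151044915, minus strand: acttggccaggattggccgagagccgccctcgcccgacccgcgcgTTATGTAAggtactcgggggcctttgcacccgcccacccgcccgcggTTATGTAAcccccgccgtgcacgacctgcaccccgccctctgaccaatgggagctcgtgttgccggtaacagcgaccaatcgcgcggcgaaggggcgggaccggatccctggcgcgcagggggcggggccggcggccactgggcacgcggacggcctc
Cry1, chr10:85185055-85185304, minus strand: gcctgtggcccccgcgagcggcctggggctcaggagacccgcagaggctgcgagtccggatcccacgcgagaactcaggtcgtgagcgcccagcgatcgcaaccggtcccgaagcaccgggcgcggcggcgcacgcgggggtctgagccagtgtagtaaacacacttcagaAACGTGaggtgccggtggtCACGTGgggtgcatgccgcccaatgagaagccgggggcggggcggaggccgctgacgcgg
Nr1d1, chr11:98775378-98775627, minus strand: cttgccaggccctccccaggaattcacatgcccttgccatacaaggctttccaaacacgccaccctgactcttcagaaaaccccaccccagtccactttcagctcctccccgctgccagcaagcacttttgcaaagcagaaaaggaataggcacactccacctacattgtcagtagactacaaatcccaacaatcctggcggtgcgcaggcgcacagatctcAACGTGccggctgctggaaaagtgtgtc

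The E-box lies 166 bases before the start in the Per1 window shown and 60 bases before it in Cry1. Another Per1 window, at 69099902 to 69100151 on chromosome 11, held no match. The D-boxes of Per3 lie 205 and 158 bases before the start. Of the 2 genes with the E-box, Cry1 was lower at index 3 than at index 1 and Per1 was higher. A match of letters is a description of the window only.

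Other transcription factors of the clock were read next, from a list of 13 symbols of which 12 were tested. The index test called 4 of 12 (Gm129, Nr1d2, Tef and Nfil3), against 11.1% of all genes. At index 3, 3 were higher and 1 lower than at index 1, against 0.81% and 1.31% of all genes. Gm129, the older symbol of Ciart, a repressor of the CLOCK and BMAL1 complex, was at 0.0926, 0.329 and 8.31 CPM for those labelled Axin2-positive and at 0.209, 1.18 and 13.6 CPM in the others (edgeR adjusted p = 0.00472). Nr1d2, the close relative of Nr1d1, and Tef, a relative of Dbp, shared the direction of Dbp, with log2 fold changes of 1.79 (SE 0.09) and 1.91 (SE 0.12) for index 3 against index 1 (edgeR adjusted p = 0.00484 and 0.01005). Nfil3, which competes with DBP for D-boxes, was lower at index 3 than at index 1 by -1.41 (SE 0.16, edgeR adjusted p = 0.0318). Hlf, the third relative of Dbp, stayed between 40.1 and 54.9 CPM and was not called (edgeR adjusted p = 0.106).

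**Figure D3:**
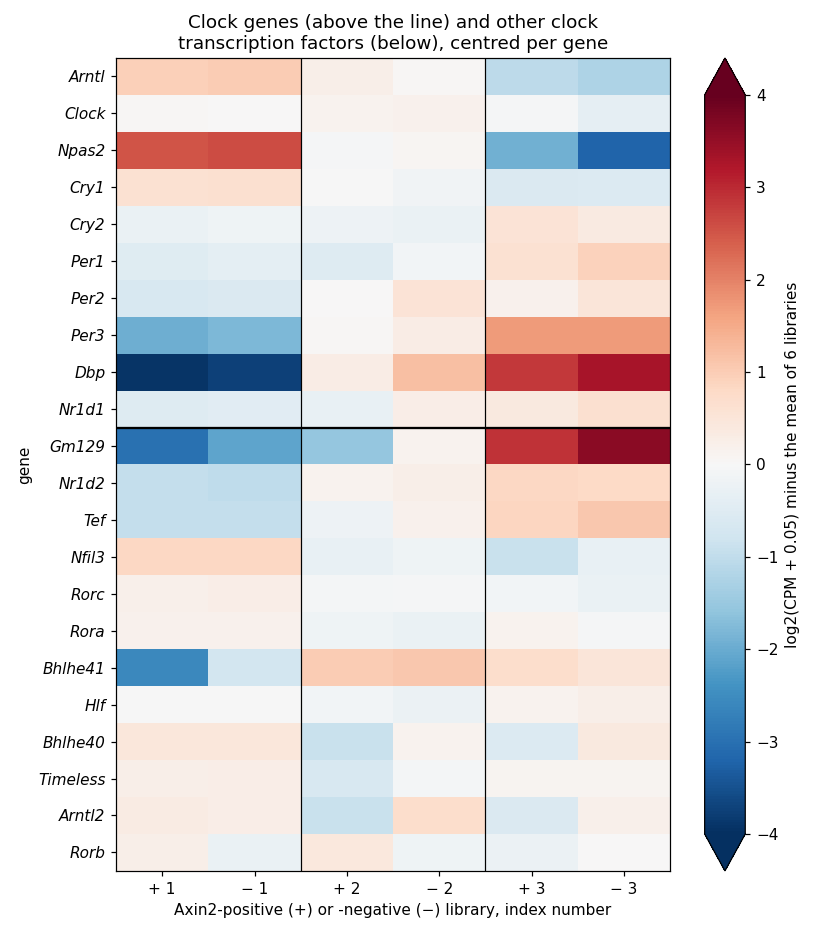
Heatmap of log2(CPM + 0.05) minus each gene's mean over the 6 libraries, with the 10 clock genes above the line and 12 other clock transcription factors below, and libraries paired by index. Arntl, Npas2, Cry1 and Nfil3 are red at index 1, and Per3, Dbp, Gm129, Nr1d2 and Tef are red at index 3.

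Of the genes for proteins that modify or degrade clock components, 1 of 20 tested passed the index test, 5% against 11.1% of all genes. That gene was Usp2, a clock-controlled deubiquitinase, at 0.648, 4.07 and 14.2 CPM for those labelled Axin2-positive and 0.888, 3.55 and 15.8 CPM in the others. Gsk3b, Csnk1e and Sirt1, next by p, had edgeR adjusted p of 0.135, 0.173 and 0.189. Of 23 tested liver genes under clock control, 14 passed, with 6 higher and 6 lower at index 2 than at index 1. Lonrf3 and Slc45a3 were lower at index 3 than at index 1, by -2.28 (SE 0.11, edgeR adjusted p = 0.00484) and -1.48 (SE 0.11, edgeR adjusted p = 0.0130). Alas1, the rate-limiting enzyme of heme synthesis, was highest at index 2 (612 and 534 CPM, against 127 and 131 CPM at index 1 and 384 and 290 CPM at index 3). Elovl3, a fatty acid elongase gene that is also male-biased in liver, was at 818 and 577 CPM at index 2 and under 3 CPM elsewhere, so its call cannot be told apart from sex. Among 14 genes that follow body temperature or glucocorticoids, 3 passed (Tsc22d3, Fkbp5 and Dnajb1), and Sgk1 did not (edgeR adjusted p = 0.0540).

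The profile of Dbp, Arntl and Per1 over the 6 libraries was compared with that of all other genes, measured as the root mean square difference of centred log2 levels. Closest to Arntl was Dnmt3b, a DNA methyltransferase gene, at 0.11, followed by Zfp457 (0.16), Prok1 (0.21) and 1110067D22Rik (0.21). For Dbp the values were larger: Raet1d came nearest at 0.95, then Gm129 (1.17), Usp2 (1.24) and Adrb3 (1.33). The measure is not scaled by the log2 range of the index means, which was 6.90 for Dbp, 2.12 for Arntl and 1.21 for Per1. Reads were few for some matches: at index 1 Raet1d had 8 and 9 and Adrb3 had 0, and Zfp457 had at most 53. For Per1 the nearest were Zfp273 (0.10), Tbc1d10a (0.13), Tbc1d1 (0.13) and Scand1 (0.14). With 6 libraries that are alike in pairs, many genes can share a profile, and these values are a description.

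The comparison that the sort was made for, Axin2-positive against Axin2-negative cells, called no clock gene. The fit did not call Axin2 itself either (log2 fold change 1.97, SE 0.81, edgeR adjusted p = 0.999), so it cannot show that differences were small. Over all 6 libraries Dbp averaged 16.0 ± 21.7 CPM among those labelled Axin2-positive and 23.4 ± 29.4 CPM in the Axin2-negative ones (SD, n = 3 each). Nr1d1 was at 106 ± 36.8 against 132 ± 47.4 CPM, Per1 at 36.9 ± 17.9 against 44.8 ± 23.2 CPM and Per2 at 13.5 ± 3.66 against 17.1 ± 6.36 CPM (SD, n = 3 each). The log2 fold change was -0.54 (SE 1.84) for Dbp, -0.31 (SE 0.35) for Nr1d1, -0.28 (SE 0.47) for Per1 and -0.35 (SE 0.35) for Per2. Those of Arntl, Clock, Npas2, Per3, Cry1 and Cry2 lay between -0.07 and 0.09. Their SE ran from 0.15 for Clock to 0.69 for Arntl, 1.11 for Per3 and 1.56 for Npas2, so these small values were not all precise. All 10 had an edgeR adjusted p of 0.999. The median of the 10 was -0.06, against -0.00472 over all tested genes. At an unadjusted p under 0.05 this fit listed 279 of 12343 genes and none of the clock genes.

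Because the spread between indexes enters that test, differences were also taken within each index, with 95% exact binomial (Clopper-Pearson) intervals that cover counting error only. At index 1 the 2 libraries were nearly alike, and the interval included 0 for 7 of 10 clock genes. At indexes 2 and 3 it excluded 0 for 8 of 10 each, where 67.8% and 64.7% of all tested genes lay outside counting error by a normal approximation (23.4% at index 1). Counting intervals say nothing of the spread between mice.

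Dbp was the clock gene with the largest such difference at index 2, lower in the Axin2-positive library by 552 against 1059 reads, a log2 difference of -0.91 (95% interval -1.07 to -0.76). At index 3 it was lower again, by -0.47 (-0.53 to -0.41), and at index 1 the difference was -0.19 (-0.93 to 0.54). Nr1d1 gave -0.07, -0.57 and -0.26 at indexes 1, 2 and 3, Per1 gave -0.08, -0.41 and -0.31, and Per2 gave -0.07, -0.51 and -0.33. These 4 genes were lower in the Axin2-positive library at both index 2 and index 3, as were 36.5% of all tested genes.

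Arntl and Cry2 had the opposite sign at both of these indexes, as did 35.3% of all genes. Arntl was higher in the Axin2-positive library by 0.20 (0.10 to 0.29) at index 2 and 0.20 (0.05 to 0.34) at index 3, and Cry2 by 0.08 (0.0041 to 0.16) and 0.16 (0.10 to 0.23). Npas2 differed by 1.41 (0.78 to 2.07) at index 3, where few reads remained, and by -0.12 (-0.36 to 0.12) at index 2. Clock differed by 0.30 (0.24 to 0.37) at index 3 and -0.02 (-0.08 to 0.04) at index 2. Per3 and Cry1 each had an interval that included 0 at index 3 (0.00, -0.09 to 0.10, and -0.03, -0.17 to 0.11).

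**Figure D4:**
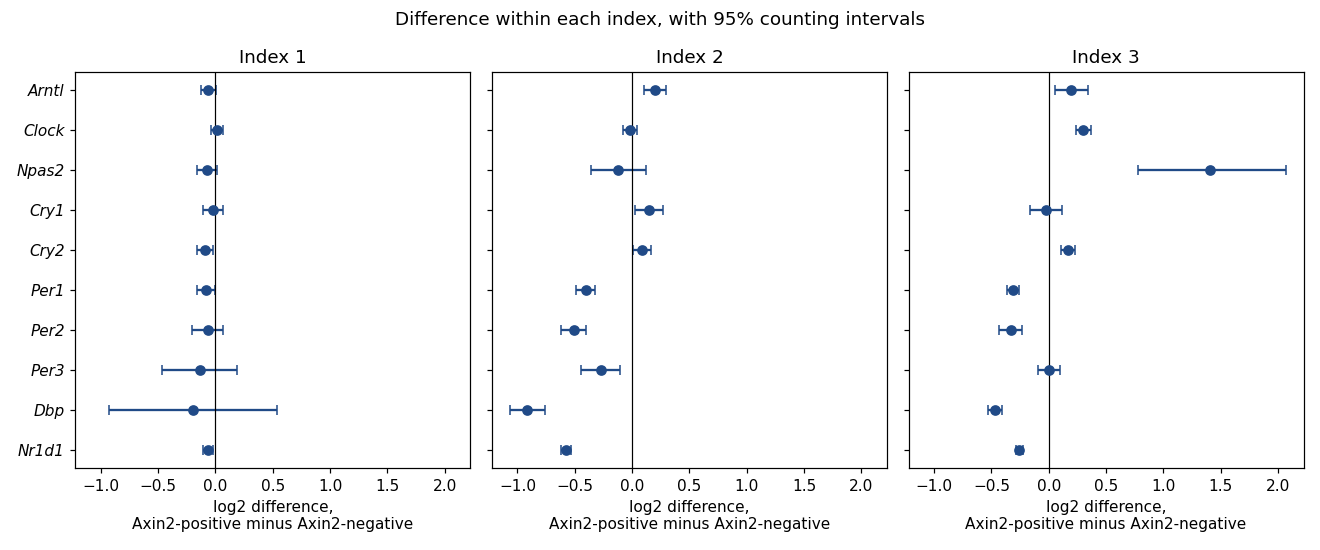
Log2 difference between the Axin2-positive and the Axin2-negative library within each index (points) with 95% counting intervals (bars). At index 1 all 10 points lie between -0.19 and 0.01, and at indexes 2 and 3 Dbp, Nr1d1, Per1 and Per2 lie left of 0.

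With the index as a block, edgeR gave log2 fold changes of -0.60 (SE 0.14) for Dbp, -0.30 (SE 0.12) for Nr1d1, -0.27 (SE 0.09) for Per1 and -0.30 (SE 0.11) for Per2, each with an adjusted p of 0.450. None of the 12343 genes passed, with 1132 at an unadjusted p under 0.05, among them Dbp, Per1 and Per2. Npas2 turned from -0.05 to 0.26 (SE 0.30, edgeR adjusted p = 0.680) under the block. Of the other clock and output genes, Gm129 (-1.17, SE 0.27), Rgs16 (-0.84, SE 0.26) and Cyp7a1 (0.82, SE 0.27) had the lowest p for the group in that fit, and their adjusted p was 0.450 too. Rgs16 encodes a regulator of G protein signalling, and Cyp7a1 the rate-limiting enzyme of bile acid synthesis, which is a pericentral function.

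A fit of indexes 2 and 3 only, again with the index as a block, called Dbp lower in the Axin2-positive libraries (-0.68, SE 0.13, edgeR adjusted p = 0.0440), where 4.01% of 12385 genes were called lower and 3.43% higher (7.44% either way). Index 1 was left out because its libraries were known to differ little, so this call is not independent evidence. Per1 (-0.36, SE 0.08, adjusted p = 0.0692), Per2 (-0.42, SE 0.10, adjusted p = 0.0698) and Nr1d1 (-0.41, SE 0.12, adjusted p = 0.107) did not pass in that edgeR fit, nor did the other 6. Leaving out index 2 or index 3 instead gave 0 calls among the 10 (Dbp -0.39 and -0.61).

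Other measures differed within indexes 2 and 3 beside Dbp, Per1, Per2 and Nr1d1. Immediate-early genes were lower in the Axin2-positive library for 15 of 22 at index 2 and 18 of 22 at index 3, where 50.7% and 50.5% of all tested genes were lower. Their summed level ran from 3255 to 7360 CPM in the Axin2-positive and 4810 to 7549 CPM in the Axin2-negative libraries. All 10 periportal genes were lower and all 10 pericentral genes higher at both. Endothelial markers were lower for 11 of 12 genes at index 2 and 12 of 12 at index 3, with sums of 3.24 against 8.36 CPM and 78.4 against 114 CPM. Kupffer cell markers summed to 1.28 against 5.25 CPM at index 2 and 5.27 against 30.1 CPM at index 3. Stellate markers summed to 0.621 against 1.48 CPM and 7.37 against 9.45 CPM, and bile duct markers to 0.228 against 3.26 CPM and 0.186 against 2.75 CPM. At index 1 the sums were 76.0 and 73.2 CPM for endothelial, 4.10 and 4.29 CPM for Kupffer, 7.33 and 7.14 CPM for stellate and 11.2 and 11.6 CPM for bile duct markers. Lymphocyte markers summed to at most 0.479 CPM, with 5 of 8 found in the table. Clec4f, Stab2, Reln, Sox9 and Ptprc were the most abundant of their lists, and no marker in the table was at 0 in all libraries. Their part in the clock result was not tested, and in bulk RNA fewer cells with a transcript cannot be told apart from less RNA per cell.

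The authors' deposited table gives 1 FPKM per transcript and group (reads per length and depth), which allows levels to be set between genes. Nr1d1 led at 46.1 and 58.1 FPKM in Axin2-positive and Axin2-negative cells, and Dbp (12.7 and 18.1) and the main Cry2 transcript (10.3 and 9.94) followed. In the same authors' deposited table Arntl (7.60 and 6.69), Clock (6.80 and 6.17) and Cry1 (5.92 and 5.29) lay close together, and Npas2 (2.31 and 2.08), Per2 (2.29 and 2.98) and Per3 (1.86 and 1.96) were lowest in FPKM. Since each value pools 3 indexes, the order holds for the pool only, and its error was not given. Per1 was split between 2 transcripts in the authors' deposited table, at 5.07 and 9.18 FPKM for the one with the lowest p of all clock transcripts (p = 0.02525, q = 0.999528) and at 2.37 and 0.0235 FPKM for the other (p = 0.0975, q = 0.999528). None of the 12 clock transcripts that the authors tested passed in their table, where 97 of all 13843 tested transcripts were marked significant.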

How the data were processed

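RNA of 6 libraries was sequenced after a stranded mRNA kit, per the labels' protocols. The deposited files are raw counts per gene, as whole numbers, and a table by the authors with FPKM per transcript and group, p-values and q-values. Their processing notes name TopHat2 2.0.11, Cuffdiff 2.2.2 and the build mm10. How genes were counted, with which annotation and strand setting, is not given in the sources, so overlapping and antisense genes are uncertain.

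Tests used edgeR 4.0.16 (R 4.3.3) on the counts, with filterByExpr, TMM factors and the quasi-likelihood F test (Benjamini-Hochberg over all tested genes, threshold 0.05). The group fit used group only. The index fit used group and index, with 2 residual degrees of freedom. SE is the log2 fold change over the root of F. Coordinates are from GENCODE M21 (GRCm38). Alternatives were DESeq2 1.42.0, limma-voom 3.58.1, other scalings, no filter, a threshold of 0.01, the replicate block, the index fit with no group term, and leaving out libraries or indexes. The fits were tested on simulated data.

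The index number pairs the libraries: deviations from the group means correlated across genes at 0.68, 0.82 and 0.75 within indexes. Since separate mice are not named in the labels, p-values measure only the spread between these samples, which may be technical. In the index fit that spread is how the difference between the groups varied over the indexes. If both libraries of an index came from 1 mouse, the index p-values do not measure the spread between mice. Members, lists and tests were chosen with earlier results of these data known. Named genes were the 10 members, up to 4 per list by p in the index test, 3 by p of the group under the block, 4 with the profile most like Dbp, Arntl or Per1, checks of the sort and sex, and the most abundant marker of each other cell type. Hlf was added after its values were seen.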

Additional observations from a re-analysis of the deposited data

How the results depend on the processing

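In the comparison of groups, 0 genes and 0 clock genes were called with DESeq2, limma-voom, no TMM factors, upper quartile factors, no filter, a threshold of 0.01 or the replicate block. Leaving out libraries or an index gave 0 to 922 genes and 0 to 1 clock genes, the highest without index 1 (6 genes with only the library labelled Axin2-positive 1 left out). In the index test the calls numbered 1364, against 4729 with DESeq2 and 125 at a threshold of 0.01, where 3 clock genes remained (Arntl, Per3 and Dbp). DESeq2 called 10 of 10 clock genes, and the fit with no group term 7, beside 1042 of all tested genes. Leaving out libraries gave 97 to 2679 genes and 3 to 9 clock genes, and leaving out index 2 or 3 gave 179 and 223 genes. Npas2 turned to 0.43 with limma-voom and 0.26 with the replicate block (0.51 and 0.44 without index 1 or 2). Without index 2 Cry1 was -0.0233, and without index 3 Clock was -0.0019 and Cry2 -0.0036, all under the block and uncalled. Cry2 between indexes 2 and 1 turned to 0.12 without TMM factors. The replicate block changed no call of a clock gene. Over the fits that left out libraries, the uncalled log2 fold change between groups crossed 0 for Arntl (-0.48 to 0.73), Clock (-0.0468 to 0.20), Npas2 (-2.00 to 2.04), Per1 (-0.76 to 0.23), Per3 (-1.32 to 1.005), Cry1 (-0.33 to 0.43), Cry2 (-0.23 to 0.30) and Dbp (-2.68 to 1.25). Removing 1 library leaves an index in 1 group only, which moves these values. Between indexes 2 and 1 it crossed 0 for Per1 (-0.0264 to 0.25) and Cry2 (-0.12 to 0.0940), and between indexes 3 and 2 for Per2 (-0.11 to 0.20). Depth limits Dbp at index 1 (32 and 36 reads) and Npas2 at index 3 (78 and 30 reads).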
